A study of Homo sapiens with 4 samples.

Results

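The genes described here are 47 components of the DNA replication machinery, chosen by gene symbol from a list of named members. They cover the proteins that license origins, the replicative helicase and its activators, the polymerases with their clamp, clamp loader and single-strand binding protein, the enzymes that join the lagging strand, and the enzymes that supply deoxynucleotides. Each gene was read through the probe set with its single symbol that had the highest mean log2 signal over 4 arrays. All 47 passed the signal filter, among 11938 genes that did. The arrays are Affymetrix U133 Plus 2.0 arrays of Z138 cells, an established human line of mantle cell lymphoma. In this B-cell cancer the transcription factor SOX11 is commonly made.

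Cells transduced stably with a lentiviral short hairpin RNA against SOX11 gave 2 arrays, 1 for construct shSOX11.1 and 1 for construct shSOX11.3. Cells transduced with a scrambled hairpin gave the other 2 arrays, named shControl.1 and shControl.2. All 4 samples thus carry an integrated hairpin, and untransduced Z138 cells were not analysed here. Each shSOX11 array stands for its own construct, and the sample titles do not say whether the shControl arrays carry different hairpins. Nothing in the labels speaks of separate cultures of a construct, so p-values measure the spread between these 4 samples only. In the shSOX11 group that spread mixes the difference between 2 constructs with technical differences. In the shControl group it may be technical. With 2 arrays a group, precision is limited throughout.

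A cell copies its genome once per division. In G1 the origin recognition complex, CDC6 and CDT1 load the MCM helicase onto DNA as an inactive ring, and geminin blocks reloading later in the cycle. In S phase the kinase CDC7 with its partner DBF4, helped by CDC45, the GINS complex and MCM10, turns that ring into a moving helicase behind which the polymerases work. E2F transcription factors, held in check by the retinoblastoma protein, are known to drive many of these genes as cells enter S phase. Mantle cell lymphoma is known for forced cyclin D expression, which acts on this switch. In RNA from bulk cultures, a smaller share of cells in S phase and less RNA per cell cannot be told apart.

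What the genes share in sequence was looked for in their promoters, from 250 bases before to 50 bases after the gene's start in the RefSeq table for GRCh38.p14. That table matched 41 of the 47 genes by symbol. MCM4, MCM5, GINS4, POLD3, RPA2 and RPA3 had no entry. The E2F-type motif was searched on both strands in the forms TTTCCCGC, TTTCGCGC, TTTGCCGC and TTTGGCGC. It was present for 21 of the 41 genes, or 51.2%, and for 3.99% of all 27305 genes with an entry (3.31% of 35116 promoters of the same length). The CCAAT box, CCAAT on either strand, was present for 24 of the 41 (58.5%) and for 39.7% of all genes with an entry. Of the 29 E2F-type matches in these promoters, 1 overlapped a CCAAT box.

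The promoters of 6 genes follow as examples. GINS2 and ORC3 passed a limit given below, RFC3 and TYMS had probe sets that differed, and CDC6 and MCM6 act in licensing. All 6 hold the E2F-type motif, which was present for only 21 of the 41 genes. Other genes with probe sets that differed, such as RRM1 and TK1, had no such motif and are not shown. They are given 5′ to 3′ on the strand of the gene in GRCh38.p14, in lower case, with E2F-type motifs and CCAAT boxes of either strand in capitals.
GINS2, chr16:85688905-85689204, minus strand: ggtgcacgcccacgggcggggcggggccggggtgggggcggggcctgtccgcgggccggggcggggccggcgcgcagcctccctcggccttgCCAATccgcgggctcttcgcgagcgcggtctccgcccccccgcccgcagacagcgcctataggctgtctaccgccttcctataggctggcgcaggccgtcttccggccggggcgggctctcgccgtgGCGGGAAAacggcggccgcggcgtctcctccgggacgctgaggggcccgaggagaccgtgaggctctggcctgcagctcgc
ORC3, chr6:87589885-87590184, plus strand: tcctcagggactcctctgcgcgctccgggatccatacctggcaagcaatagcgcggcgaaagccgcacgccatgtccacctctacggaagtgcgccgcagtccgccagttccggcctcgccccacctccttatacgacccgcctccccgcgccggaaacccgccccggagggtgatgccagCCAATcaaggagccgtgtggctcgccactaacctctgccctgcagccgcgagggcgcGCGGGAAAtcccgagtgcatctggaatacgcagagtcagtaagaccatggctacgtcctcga
RFC3, chr13:33817899-33818198, plus strand: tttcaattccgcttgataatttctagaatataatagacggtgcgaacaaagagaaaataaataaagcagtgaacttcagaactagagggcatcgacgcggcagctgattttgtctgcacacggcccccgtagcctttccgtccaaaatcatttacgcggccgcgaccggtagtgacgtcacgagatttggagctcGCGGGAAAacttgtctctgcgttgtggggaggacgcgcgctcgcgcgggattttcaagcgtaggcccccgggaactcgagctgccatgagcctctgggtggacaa
TYMS, chr18:657403-657702, plus strand: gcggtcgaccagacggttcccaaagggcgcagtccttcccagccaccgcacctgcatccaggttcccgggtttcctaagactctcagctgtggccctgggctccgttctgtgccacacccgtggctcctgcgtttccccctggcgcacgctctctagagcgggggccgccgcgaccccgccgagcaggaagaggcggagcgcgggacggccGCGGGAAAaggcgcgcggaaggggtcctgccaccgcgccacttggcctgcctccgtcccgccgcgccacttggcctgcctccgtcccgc
CDC6, chr17:40287629-40287928, plus strand: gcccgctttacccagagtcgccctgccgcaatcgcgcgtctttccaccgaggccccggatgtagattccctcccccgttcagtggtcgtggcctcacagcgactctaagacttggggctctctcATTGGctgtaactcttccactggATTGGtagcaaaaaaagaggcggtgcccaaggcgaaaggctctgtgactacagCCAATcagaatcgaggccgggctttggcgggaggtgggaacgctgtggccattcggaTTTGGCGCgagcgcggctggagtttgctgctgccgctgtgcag
MCM6, chr2:135876394-135876693, minus strand: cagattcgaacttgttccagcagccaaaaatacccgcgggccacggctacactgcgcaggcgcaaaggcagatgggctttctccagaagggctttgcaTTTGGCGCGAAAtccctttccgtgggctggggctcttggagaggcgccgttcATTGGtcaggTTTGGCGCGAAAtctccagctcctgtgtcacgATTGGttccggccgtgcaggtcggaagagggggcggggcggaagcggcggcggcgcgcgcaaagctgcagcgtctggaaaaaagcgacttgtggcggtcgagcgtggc
GINS2, ORC3, RFC3 and TYMS held the form TTTCCCGC on the opposite strand, with its first base 31, 12, 55 and 39 bases before the start. CDC6 held TTTGGCGC 8 bases after the start. MCM6 held TTTGGCGC at 152 and again at 90 bases before it, each time overlapped by TTTCGCGC on the opposite strand. A match is a description of letters and not a bound site. Among the 41 genes, the median log2 change between shSOX11 and shControl cells was -0.088 for the 21 with the E2F-type motif and -0.052 for the 20 without it.

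The knockdown was checked first. SOX11 signal was 335 and 339 on shSOX11.1 and shSOX11.3 and 797 and 787 on shControl.1 and shControl.2. It was 2.35-fold lower in shSOX11 cells, with log2 means of 8.40 ± 0.012 in shSOX11 cells and 9.63 ± 0.012 in shControl cells (SD, n = 2 each) and a log2 change of -1.23 (SE 0.15). The limma adjusted p over all genes was 0.131. The signals of the groups did not overlap, and SOX11 stood at 42.5% of the control level.

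On the arrays as a whole, the 2% trimmed mean signal was 150.02 on each and the median signal lay between 23.9 and 25.7. The 3′/5′ signal ratio of beta-actin, which reflects how far labelled RNA reaches along the transcript, stood at 7.29 and 5.31 on the shSOX11 arrays and 11.6 on both shControl arrays, while that of GAPDH lay between 0.978 and 1.06. All 7 measured B-cell and mantle cell lymphoma markers were above the signal threshold of 24.8 on at least 2 arrays, with summed signals of 18409.5 and 18707 on the shSOX11 arrays and 21996 and 21948 on the shControl arrays. Of 12 T and NK cell markers 3 were, with sums of 429 and 369.9 on the shSOX11 arrays and 536 and 544 on the shControl arrays, and 5 of the 12 were above it on no array. Sums over 9 myeloid markers (3 above the threshold) were 154 and 137 on the shSOX11 arrays and 171 and 110.4 on the shControl arrays. Sums over 3 erythroid markers (3 above) were 80.2 and 82.5 on the shSOX11 arrays and 126 and 79.6 on the shControl arrays. Sums over 11 epithelial and stromal markers, led by VIM and COL1A1, were 9045 and 7776 on the shSOX11 arrays and 8458 and 8009.7 on the shControl arrays, and 4 of the 11 were above the threshold on no array. The part of RNA quality or of other cells in the differences below was not tested.

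The question for the replication genes is whether lowering SOX11 moved them, with both constructs together and with each on its own. With both constructs together, none of the 47 genes passed the test. Their log2 changes, shSOX11 minus shControl, ran from -0.35 to 0.32, or from 1.27-fold lower for GINS4 to 1.25-fold higher for ORC3. The median was -0.070, beside -0.063 over all genes tested, and 32 genes were lower and 15 higher in the mean. Among all genes tested 58.1% were lower. With each array centred on its median, the split was 23 lower and 24 higher, beside 47.3% lower of all genes, and the median of the 47 was 0.013, beside 0.020 over all genes. The median size of the log2 change was 0.13 for the replication genes and 0.21 for all genes. The lowest signal on any array was 63.6 for the 47 genes and 0.57 over all genes tested. The background was not matched for signal here, and dim signals are noisier.

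Limma with Benjamini-Hochberg adjustment called 0 of the 47 at 0.05, and the background was 0% of 11938 genes. The adjusted p of the 47 ranged from 0.587 to 0.999. At an unadjusted limma p under 0.05 there was 1 of 47, GINS2, on the lower side, where 8.38% of all genes lay under it (4.98% lower and 3.4% higher). When every probe set was fitted on its own, the unadjusted limma p of the same GINS2 probe set was 0.0575. Without the intensity trend and in the robust fit the adjusted count was 0 as well. For any single gene, 0.333 is the smallest two-sided p that an exact permutation of these 4 arrays allows.

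A missed threshold does not show that levels were alike, so the intervals of the changes were set against a 1.5-fold limit. The limma 95% interval lay wholly inside 1.5-fold either way for 32 of the 47 genes, beside 29.8% of all genes, and beside 38.5% when the filter was raised to the 65th percentile of signal. These 32 include MCM2, MCM3, MCM4, MCM6, CDC45, CDT1, GMNN, POLE, RPA1 and all 5 enzymes of nucleotide supply. The other 15 had an interval that crossed a limit. All these intervals are of the brightest probe set. On the second brightest, the log2 interval crossed a limit for RRM1 (0.099 to 0.86), TYMS (0.14 to 0.85) and TK1 (-0.95 to -0.091). For RRM2 and DUT it stayed inside. It also crossed a limit for MCM4, MCM6, MCM10, CDT1, ORC2, ORC5, RFC1, RFC3, RFC5, POLA2 and RPA1. For GINS3, RFC2 and FEN1 it stayed inside. The rest of the 32 had no second probe set past the filter. The plot of intervals shows the widest for PRIM2, whose probe set had the lowest signals of the 47, at 72.2 and 99.8 on the shSOX11 arrays and 104.8 and 63.6 on the shControl arrays.

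**Figure D1:**
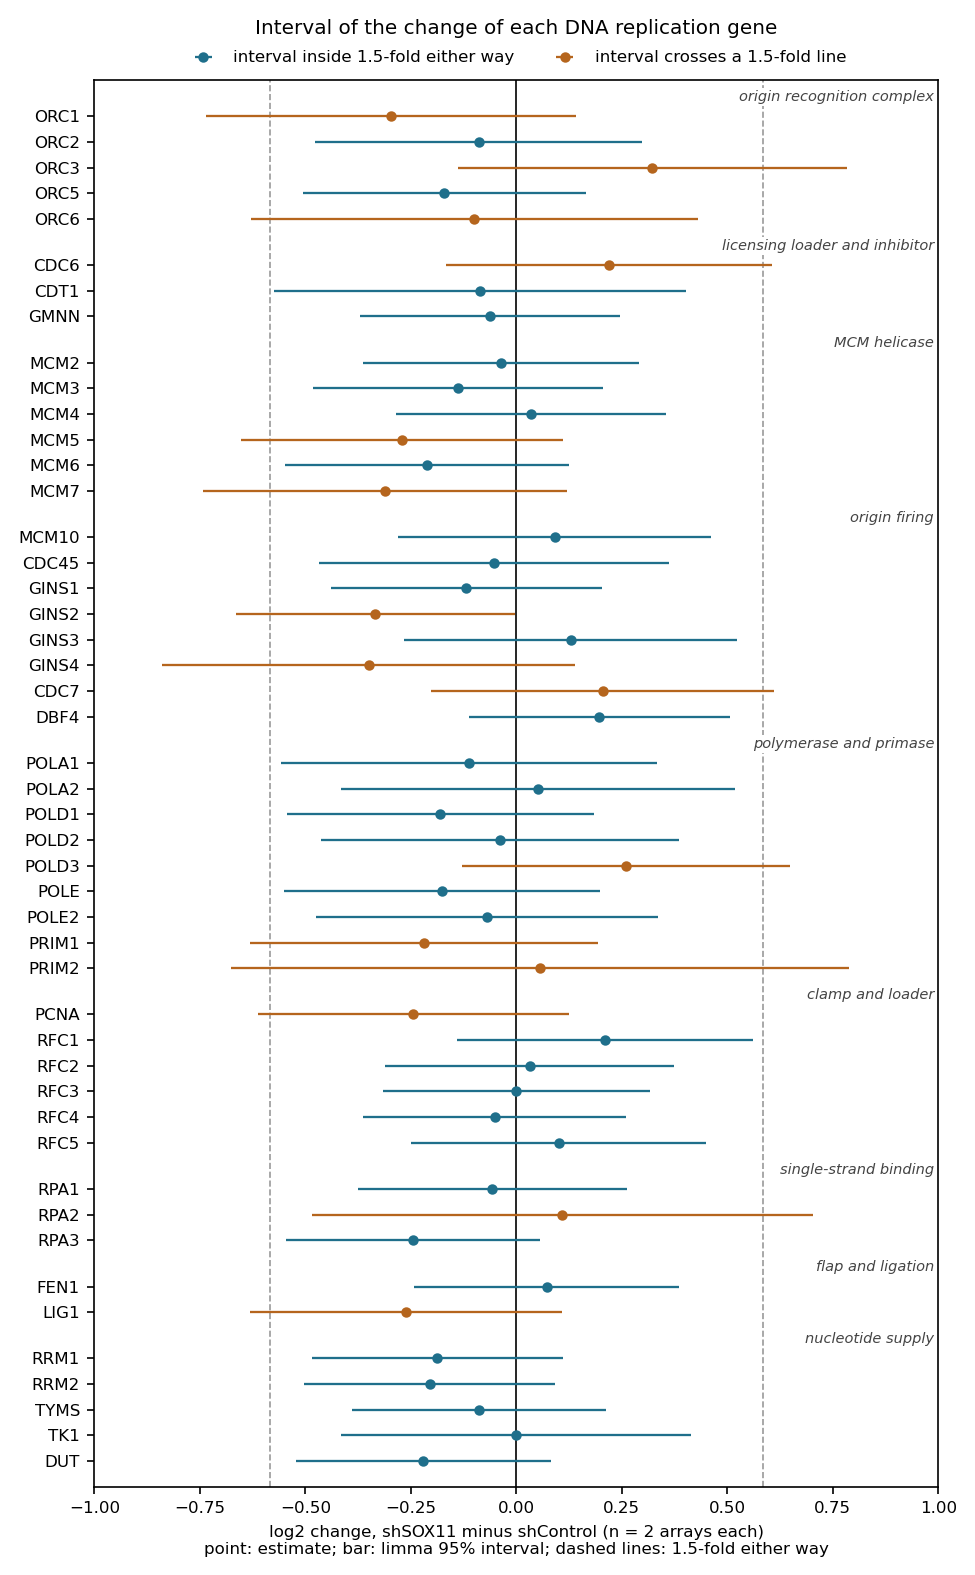
Log2 change (shSOX11 minus shControl, n = 2 arrays each, x axis) of each of the 47 genes, grouped by role down the page; points are estimates, bars limma 95% intervals and dashed lines 1.5-fold either way. Every estimate lies between -0.35 and 0.32, and the 32 genes in blue have intervals inside both dashed lines.

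The signals of the groups did not overlap for 21 of the 47 genes. In 15 of these both shSOX11 arrays were below both shControl arrays, and in 6 both were above. Over all genes, 24.9% did not overlap on the lower side and 16.2% on the higher side.

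The origin recognition complex, which marks the sites where replication starts, is described first. ORC3, one of its core subunits, had signals of 596 and 413 on shSOX11.1 and shSOX11.3 and 397 and 397 on shControl.1 and shControl.2. It is the 1 gene of the 47 that was at least 1.5-fold from both shControl arrays on either construct, on shSOX11.1 alone, by 0.59 on the log2 scale against 0.057 on shSOX11.3. Over all genes, 2.78% were at least 1.5-fold above both shControl arrays on shSOX11.1. ORC3 lies at the limit, and it was no longer past it after quantile normalization or with a pseudocount of 32. With both constructs its log2 change was 0.32 (SE 0.20, 95% interval -0.14 to 0.78, limma adjusted p = 0.659).

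ORC1, the ATPase subunit that is made anew in each G1, had signals of 186 and 237 on shSOX11.1 and shSOX11.3 and 261 and 256 on shControl.1 and shControl.2. Its log2 change was -0.30 (SE 0.19), and both shSOX11 arrays were below both shControl arrays. ORC6, the subunit least tied to the core, had signals of 1203 and 2009 on shSOX11.1 and shSOX11.3 and 1555 and 1787 on shControl.1 and shControl.2. Its name ends in _x_at, Affymetrix's mark for probes that may read other transcripts too. The shSOX11 arrays lay on either side of the shControl arrays, at -0.47 and 0.27 on the log2 scale. For ORC2 and ORC5, subunits of the core complex, the log2 changes were -0.089 (SE 0.17) and -0.17 (SE 0.15).

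CDC6, CDT1 and geminin, which load the helicase and restrain its loading, showed no common direction. CDC6, the ATPase that joins the origin recognition complex, had signals of 572 and 624 on shSOX11.1 and shSOX11.3 and 566 and 465 on shControl.1 and shControl.2. Its log2 change was 0.22 (SE 0.17, 95% interval -0.17 to 0.60, limma adjusted p = 0.708), and the nearest shSOX11 and shControl arrays were close together. The second CDC6 probe set gave 440 and 424 on the shSOX11 arrays and 343 and 323 on the shControl arrays. The groups did not overlap there, and the log2 change was 0.38 (SE 0.17). CDT1, the chaperone that brings the MCM ring, had signals of 400.5 and 613 on shSOX11.1 and shSOX11.3 and 532 and 520.4 on shControl.1 and shControl.2, so that shSOX11.1 was below and shSOX11.3 above both shControl arrays. Its log2 change was -0.087 (SE 0.21). The CDT1 probe set carries the same _x_at ending, and the second CDT1 probe set lay at -0.19. Geminin, gene GMNN, the inhibitor of CDT1, had signals of 3477 and 3189 on shSOX11.1 and shSOX11.3 and 3463 and 3489.9 on shControl.1 and shControl.2. The arrays of GMNN differed little, and its 95% interval ran from -0.37 to 0.25.

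The MCM helicase subunits MCM2 to MCM7 form the ring that unwinds DNA. In the mean 5 of the 6 were lower and 1, MCM4, was higher, with log2 changes from -0.31 to 0.035. With each array centred on its median, MCM2 turned to 0.046. MCM2 had signals of 1462 and 1635 on shSOX11.1 and shSOX11.3 and 1624 and 1548 on shControl.1 and shControl.2. The arrays of MCM2 overlapped, with log2 means of 10.59 ± 0.11 in shSOX11 cells and 10.63 ± 0.048 in shControl cells (SD, n = 2 each) and a log2 change of -0.037 (SE 0.14, 95% interval -0.36 to 0.29, limma adjusted p = 0.949). MCM7 had signals of 4190.3 and 2892 on shSOX11.1 and shSOX11.3 and 4087 and 4567 on shControl.1 and shControl.2, low on shSOX11.3 and, on shSOX11.1, within the range of the shControl arrays. Its log2 change was -0.31 (SE 0.19, 95% interval -0.74 to 0.12, limma adjusted p = 0.654). The second MCM7 probe set gave 3438 and 2988 on the shSOX11 arrays and 4186 and 3980.3 on the shControl arrays, without overlap, and a log2 change of -0.35 (SE 0.15).

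The remaining ring subunits varied between the constructs. MCM5 had signals of 1138 and 1487 on shSOX11.1 and shSOX11.3 and 1573 and 1565 on shControl.1 and shControl.2, and its log2 change was -0.27 (SE 0.17). It was lower on shSOX11.1 by 0.46 and on shSOX11.3 by 0.078 against the shControl mean. MCM6 showed the other order on its brightest probe set, with signals of 5211 and 4263 on shSOX11.1 and shSOX11.3. On shControl.1 and shControl.2 it had 5433 and 5481, and its log2 change was -0.21 (SE 0.15). The second MCM6 probe set was dimmer and showed the order of MCM5. It gave 100 and 160 on shSOX11.1 and shSOX11.3 and 172 and 169 on shControl.1 and shControl.2. Against the shControl mean it lay at -0.77 on shSOX11.1, past 1.5-fold from both shControl arrays, and at -0.092 on shSOX11.3. For MCM3 the log2 change was -0.14 (SE 0.15) and for MCM4 it was 0.035 (SE 0.14), with overlap in both. The other 3 MCM4 probe sets gave higher log2 changes, of 0.35, 0.22 and 0.49, and on 2 of them the groups did not overlap.

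**Figure D2:**
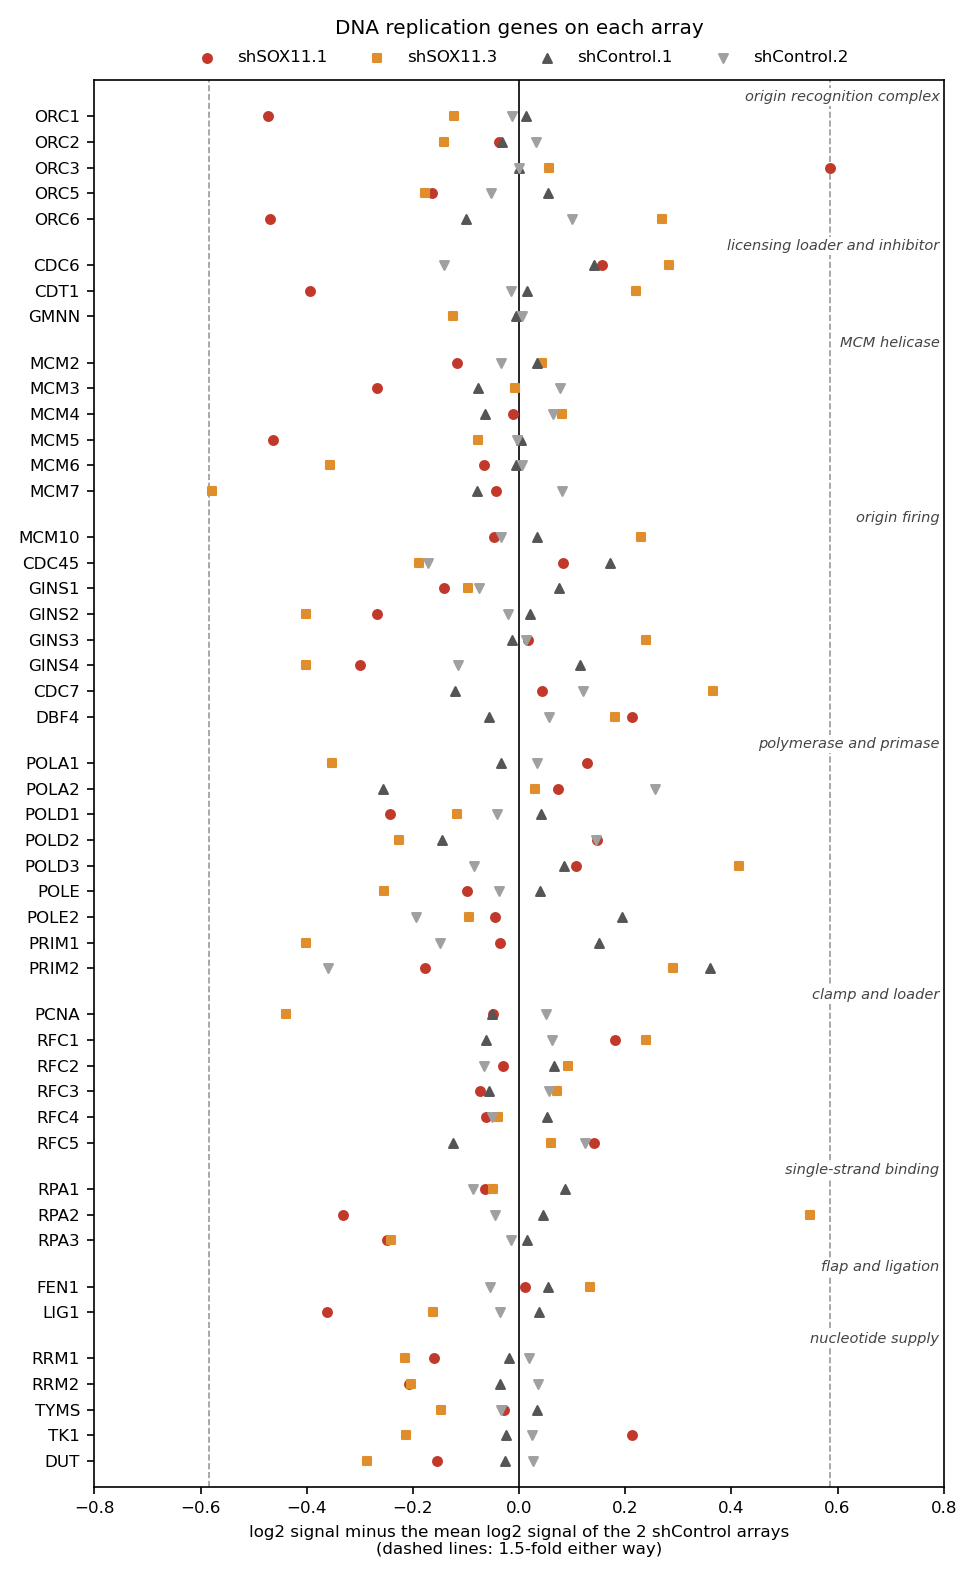
Log2 signal of each of the 47 genes on each array minus the mean log2 signal of the shControl arrays (x axis), grouped by role down the page; red circles and orange squares are shSOX11.1 and shSOX11.3, grey triangles the shControl arrays, dashed lines 1.5-fold either way. ORC3 on shSOX11.1, at 0.59, is the only point on or past a dashed line from both shControl arrays, and RPA2, ORC6 and CDT1 have the shSOX11 arrays on opposite sides.

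The factors that fire the licensed origin include the GINS complex, CDC45, MCM10 and the kinase CDC7 with DBF4. GINS2, a GINS subunit, had signals of 1036 and 944 on shSOX11.1 and shSOX11.3 and 1265 and 1229.7 on shControl.1 and shControl.2. Both shSOX11 arrays were below both shControl arrays, 1.26-fold in the mean, with log2 means of 9.95 ± 0.095 in shSOX11 cells and 10.28 ± 0.029 in shControl cells (SD, n = 2 each). The log2 change was -0.33 (SE 0.14, 95% interval -0.67 to -0.0038, limma adjusted p = 0.587), with an unadjusted limma p of 0.0479. Of its 2 dimmer probe sets, 1 lay at -0.042 and the other, whose signals of 34.7 and 40.0 on the shSOX11 arrays and 13.2 and 32.5 on the shControl arrays were near the threshold, at 0.85. The GINS2 change turned to 0.16 with the mean of its probe sets.

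GINS1 and GINS4 were lower and GINS3 higher in the mean, without overlap of the groups, at -0.12 (SE 0.14), -0.35 (SE 0.21) and 0.13 (SE 0.17). GINS4 was dim, with signals of 113 and 105 on shSOX11.1 and shSOX11.3 and 151 and 128 on shControl.1 and shControl.2, and its 4 probe sets were all lower in the mean, by 0.075 to 0.35. CDC45, the partner of GINS on the moving helicase, had signals of 752 and 623 on shSOX11.1 and shSOX11.3 and 799.7 and 631 on shControl.1 and shControl.2. The shControl arrays of CDC45 lay further apart than the shSOX11 arrays, and its log2 change was -0.053 (SE 0.18). For CDC7 the log2 change was 0.20 (SE 0.18). DBF4 was at 3058 and 2988 on the shSOX11 arrays and 2536 and 2743 on the shControl arrays, without overlap, and its log2 change was 0.20 (SE 0.14). MCM10 lay at 0.091 (SE 0.16) on its brightest probe set. On its second, the signals were 604 and 599 on the shSOX11 arrays and 732 and 902 on the shControl arrays, without overlap, a log2 change of -0.43 (SE 0.17).

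DNA polymerase alpha, which starts each strand with the primase, showed overlapping signals at both of its subunits. POLA1, the catalytic subunit, had signals of 519.6 and 372 on shSOX11.1 and shSOX11.3 and 464 and 487 on shControl.1 and shControl.2, with shSOX11.1 above and shSOX11.3 below the shControl arrays. Its log2 change was -0.11 (SE 0.19, 95% interval -0.56 to 0.33, limma adjusted p = 0.877). POLA2, its regulatory subunit, lay at 0.051 (SE 0.20). Of the primase subunits, PRIM1 lay at -0.22 (SE 0.18) and PRIM2 at 0.056 (SE 0.32). A further 4 probe sets that name both PRIM2 and PRIM2BP were not used.

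POLE, the catalytic subunit of the leading strand polymerase epsilon, had signals of 377 and 338 on shSOX11.1 and shSOX11.3 and 414 and 393 on shControl.1 and shControl.2. Both shSOX11 arrays were below both shControl arrays, and the log2 change was -0.18 (SE 0.16, 95% interval -0.55 to 0.20, limma adjusted p = 0.757). Its partner POLE2 lay at -0.070 (SE 0.18) with overlap. Of polymerase delta, which works on the lagging strand, the catalytic POLD1 lay at -0.18 (SE 0.16) and the accessory POLD2 and POLD3 at -0.039 (SE 0.19) and 0.26 (SE 0.17). POLD1 was lower and POLD3 higher without overlap.

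PCNA, the sliding clamp that holds the polymerases on DNA, had signals of 7381 and 5632 on shSOX11.1 and shSOX11.3 and 7370.1 and 7917 on shControl.1 and shControl.2. On shSOX11.1 it was within the range of the shControl arrays and on shSOX11.3 below it, by 0.44 on the log2 scale against their mean. The log2 change was -0.24 (SE 0.16, 95% interval -0.61 to 0.12, limma adjusted p = 0.67). The clamp loader subunits RFC1 to RFC5 had log2 changes from -0.051 for RFC4 to 0.21 for RFC1, and the groups overlapped for all but RFC1. RFC3, at 3369 and 3729 on the shSOX11 arrays and 3409.6 and 3688 on the shControl arrays, had a log2 change of -0.00071, the smallest of the 47 in size, and it turned to 0.057 after quantile normalization and to 0.082 with median centring.

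RPA1, the large subunit of the single-strand binding protein RPA, had signals of 2507 and 2533 on shSOX11.1 and shSOX11.3 and 2784 and 2467 on shControl.1 and shControl.2. The groups overlapped, and the log2 change was -0.057 (SE 0.14, 95% interval -0.38 to 0.26, limma adjusted p = 0.915). RPA2, the middle subunit, had signals of 668 and 1231 on shSOX11.1 and shSOX11.3 and 869 and 815 on shControl.1 and shControl.2. The shSOX11 arrays of RPA2 lay below and above both shControl arrays, and its log2 change of 0.11 (SE 0.26) averages these. RPA3, the small subunit, was lower on both shSOX11 arrays, at 2913 and 2928 on the shSOX11 arrays and 3498 and 3425 on the shControl arrays, by 1.19-fold with a log2 change of -0.25 (SE 0.13). FEN1, which trims the flap between lagging strand fragments, lay at 0.072 (SE 0.14), and LIG1, the ligase that seals them, at -0.26 (SE 0.16).

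The enzymes of nucleotide supply were the role in which all members, 5 of 5, had a log2 change below 0 as measured, from -0.22 to -0.00093. TK1 turned to 0.082 with median centring and TYMS to 0.029 after quantile normalization. Among all genes 58.1% lay below 0. On their second brightest probe sets RRM1, RRM2 and TYMS lay above 0, at 0.48, 0.13 and 0.50. RRM1, the large subunit of ribonucleotide reductase, had signals of 4708 and 4535 on shSOX11.1 and shSOX11.3 and 5194 and 5329.8 on shControl.1 and shControl.2. RRM2, its small subunit that rises in S phase, had signals of 4876 and 4888 on shSOX11.1 and shSOX11.3 and 5490.3 and 5772 on shControl.1 and shControl.2. For both, each shSOX11 array was below each shControl array, by 1.14-fold for RRM1 and by 1.15-fold for RRM2. The log2 change of RRM1 was -0.19 (SE 0.13, 95% interval -0.48 to 0.11, limma adjusted p = 0.684), and that of RRM2 was -0.21 (SE 0.13, 95% interval -0.50 to 0.092, limma adjusted p = 0.661). TYMS, thymidylate synthase, had signals of 8392 and 7725 on shSOX11.1 and shSOX11.3 and 8766 and 8357 on shControl.1 and shControl.2. The groups overlapped for TYMS, with a log2 change of -0.088 (SE 0.13, 95% interval -0.39 to 0.21, limma adjusted p = 0.853). DUT, which removes dUTP, was at 6819 and 6224 on the shSOX11 arrays and 7451 and 7736 on the shControl arrays, without overlap on an _x_at probe set, a log2 change of -0.22 (SE 0.13). TK1, the salvage kinase of thymidine, was at 769.9 and 573 on the shSOX11 arrays and 654 and 676 on the shControl arrays and so on either side of the shControl arrays.

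The constructs were then taken one at a time against the same shControl arrays, which both comparisons share. For shSOX11.1 the median log2 difference of the 47 genes was -0.050, beside -0.0043 over all genes. For shSOX11.3 it was -0.095, beside -0.098. With median centring the medians of the 47 became 0.021 for shSOX11.1 and -0.00052 for shSOX11.3. On shSOX11.1, 32 genes were below and 15 above the shControl mean, and on shSOX11.3, 28 were below and 19 above. Over all genes tested, 50.6% were below it on shSOX11.1 and 59.5% on shSOX11.3. By the 1.5-fold rule, 1 gene was past the limit on shSOX11.1 (ORC3, higher) and 0 on shSOX11.3. The background was 2.78% higher and 6.29% lower on shSOX11.1, and 3.03% higher and 8.59% lower on shSOX11.3. With a filter at the 65th percentile, which keeps genes of higher signal, these became 1.61%, 3.57%, 2.8% and 5.81%.

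In a limma fit of shSOX11.3 alone against both shControl arrays, 4 of the 47 genes passed an adjusted p of 0.05, which is 3 lower and 1 higher. Among all genes 7.98% passed, 5.44% lower and 2.55% higher. Lower were MCM6, MCM7 and PCNA, with log2 differences of -0.36 (SE 0.091, limma adjusted p = 0.0388), -0.58 (SE 0.11, limma adjusted p = 0.0142) and -0.44 (SE 0.089, limma adjusted p = 0.0188). The higher gene was RPA2, at 0.55 (SE 0.13, limma adjusted p = 0.0322). In the same fit of shSOX11.1 alone, 0 of the 47 passed, beside 1.77% of all genes (1.23% lower and 0.536% higher). MCM5 and ORC3 came nearest on shSOX11.1, with limma adjusted p of 0.0863 and 0.0898. In these fits the lone array is assumed to vary like the shControl arrays, whose spread was the narrower, so the error of the shSOX11 array itself is not measured. Whether the constructs differ from each other was not tested.

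The constructs were also set against each other. The log2 signals of shSOX11.1 and shSOX11.3 were a median of 0.15 apart in the 47 genes, and those of shControl.1 and shControl.2 0.10 apart. Over all genes, which include dimmer ones and were not matched for signal, these medians were 0.30 and 0.18. The distance was wider between the shSOX11 arrays in 30 of the 47, beside 63.5% of all genes, and the constructs lay on opposite sides of the shControl mean in 14 of the 47, beside 38.4% of all genes. RPA2, ORC6 and CDT1, singled out after their values were seen, were the widest of these 14, with shSOX11.1 low and shSOX11.3 high in each. SOX11 itself differed little between the constructs, at -1.24 and -1.23.

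Several genes have more than 1 probe set past the filter, and these did not always show the same change. Of 87 probe sets with a single member's symbol 85 passed, 22 genes had 1 and 25 had more. The probe sets of 12 of the 25 differed in sign. In 16 of the 25 the log2 change of the second brightest probe set was above that of the brightest, and in 9 below. In a fit over single probe sets, 0 of 85 passed limma's adjusted p of 0.05 (background 0.00355% of 28202), and 7 lay under an unadjusted 0.05, which is 3 lower (background 3.76%) and 4 higher (background 4.5%). The 7 belong to MCM7, MCM10 and TK1 on the lower side and to RFC1, RFC3, RRM1 and TYMS on the higher side, and in all 7 cases it was the second brightest probe set.

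The widest of these was RFC3. Its second brightest probe set had signals of 1046 and 1579.6 on shSOX11.1 and shSOX11.3 and 841 and 676 on shControl.1 and shControl.2, without overlap and 1.71-fold higher in shSOX11 cells, a log2 change of 0.77 (SE 0.22, 95% interval 0.27 to 1.27, limma adjusted p = 0.476). The brightest had shown -0.00071. RRM1 gave 533 and 555 on shSOX11.1 and shSOX11.3 and 398 and 383 on shControl.1 and shControl.2 on its second probe set, a log2 change of 0.48 (SE 0.17, 95% interval 0.099 to 0.86, limma adjusted p = 0.544). Both probe sets of RRM1 separated the groups, in opposite directions. TYMS gave 2374 and 2013 on shSOX11.1 and shSOX11.3 and 1593 and 1508 on shControl.1 and shControl.2, a log2 change of 0.50 (SE 0.15, 95% interval 0.14 to 0.85, limma adjusted p = 0.513), also without overlap. RFC1 gave 525 and 629 on the shSOX11 arrays and 382 and 381 on the shControl arrays on another _x_at probe set, a log2 change of 0.59 (SE 0.18) beside 0.21 on the brightest.

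On the lower side, TK1 gave 613 and 463 on shSOX11.1 and shSOX11.3 and 734 and 792 on shControl.1 and shControl.2 on its second probe set. Both shSOX11 arrays were below both shControl arrays there, with a log2 change of -0.52 (SE 0.19, 95% interval -0.95 to -0.091, limma adjusted p = 0.549), where the brightest probe set of TK1 had overlapped. Further genes whose probe sets differed in sign were GINS2, GINS3, MCM10, ORC2, ORC5, RFC5, POLA2, RPA1 and RRM2. For RFC5 the values were 0.10, -0.31 and 0.39, and for POLA2 0.051, -0.57 and 0.35. For RPA1 the second probe set lay at 0.30 and for RRM2 at 0.13. For ORC2 it lay at 0.18, for ORC5 at 0.26 and for GINS3 at -0.037. Probe sets agreed most closely for RFC2 and MCM7. The beta-actin 3′/5′ ratio, which also bears on where along a transcript a probe set reads, was 7.29 and 5.31 on the shSOX11 arrays and 11.6 on both shControl arrays, and its part in these differences was not tested. Which transcripts or positions the probe sets read is not given in the sources used here.

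**Figure D3:**
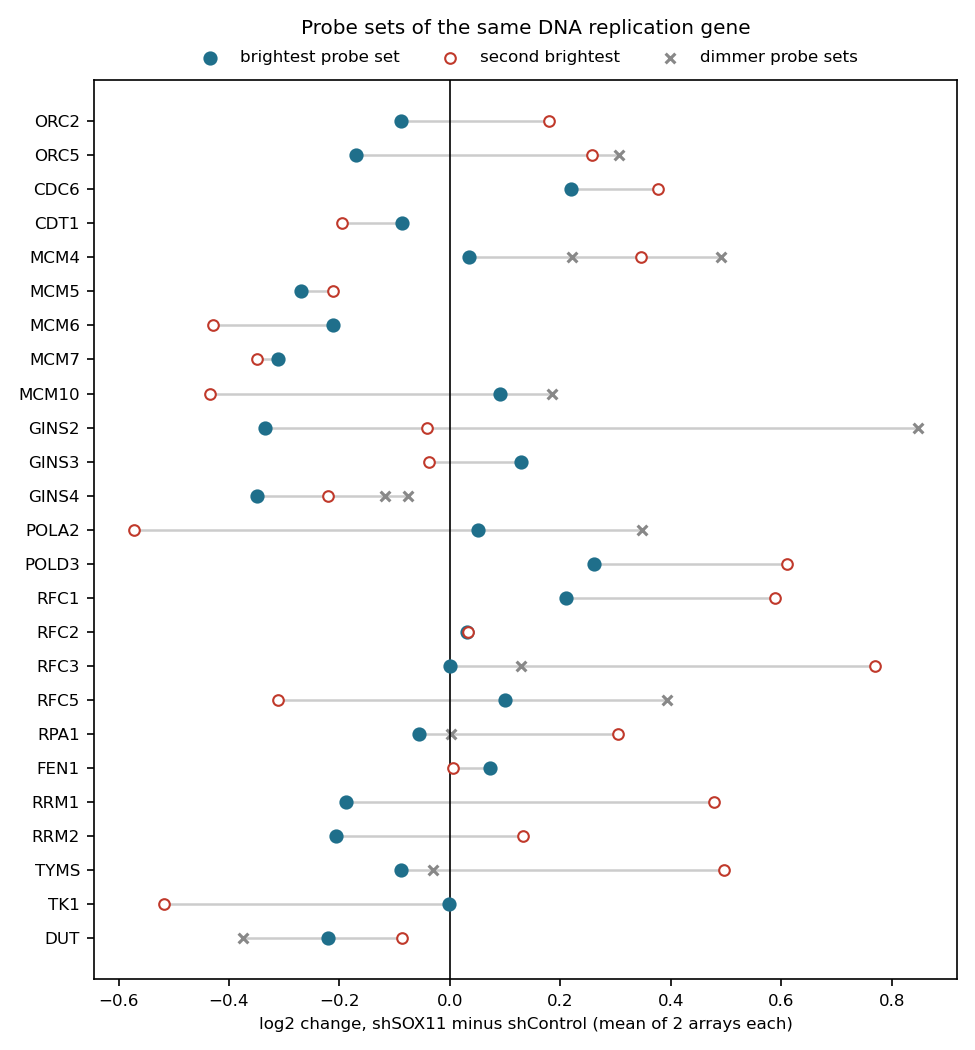
Log2 change (shSOX11 minus shControl, mean of 2 arrays each, x axis) of every probe set past the filter for the 25 genes with more than 1; filled blue points are the brightest probe set, open red points the second brightest, crosses the dimmer ones, and grey lines join the probe sets of a gene. RFC3, RRM1, TYMS, ORC5 and RFC1 have an open point 0.38 or more to the right of the filled one. POLA2, TK1, MCM10 and RFC5 have an open point as far to the left, at -0.57, -0.52, -0.43 and -0.31.

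Other genes of S phase were read from 6 further lists. Each was read through its brightest probe set alone, and any further probe sets of these genes were not compared. None of their members passed limma's adjusted p of 0.05. The origin and initiation factors (11 of 12 tested) had a median log2 change of 0.15 with both constructs together. Taken singly, construct shSOX11.1 gave a list median of 0.037, while construct shSOX11.3 gave -0.021. MCM8 and MCM9, relatives of the ring subunits, lay at 0.37 (SE 0.21) and 0.34 (SE 0.24). Against the shControl mean, MCM8 stood at 0.083 for shSOX11.1 and 0.66 for shSOX11.3, and MCM9 at 0.037 and 0.64. The fork protector DONSON lay at 0.24 (SE 0.17). In this list 0 genes lay under an unadjusted limma p of 0.05. Among 21 fork and lagging strand factors (median -0.081) 1 gene lay under it, TOP2A, the topoisomerase that separates DNA strands, at 0.51 (SE 0.16), with ATAD5, the unloader of PCNA, at 0.45 (SE 0.23) and TIPIN, which steadies stalled forks, at -0.28 (SE 0.15). Of 22 further nucleotide supply genes (median -0.035) 1 was under it, the pyrophosphatase DCTPP1, at 1597 and 1399.5 on the shSOX11 arrays and 1878 and 1959 on the shControl arrays and -0.36 (SE 0.14). DTYMK, which phosphorylates dTMP, and RRM2B, the p53-inducible small subunit of ribonucleotide reductase, lay at -0.30 (SE 0.14) and 0.39 (SE 0.19).

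Among 10 genes of replication-coupled chromatin assembly (median 0.015) 0 lay under an unadjusted limma p of 0.05, with the histone chaperone ASF1B at -0.39 (SE 0.21) and the CAF-1 subunits RBBP4 and CHAF1A at 0.31 (SE 0.14) and -0.33 (SE 0.18). The G1/S control list (28 tested, median 0.0093) held 4 such genes, 2 higher and 2 lower, where 8.38% of all genes lay under that p. MYBL2, a transcription factor of the late cell cycle, was at 621 and 725 on the shSOX11 arrays and 979.6 and 1029 on the shControl arrays, a log2 change of -0.58 (SE 0.16, 95% interval -0.94 to -0.23, limma adjusted p = 0.394). CCNE2, a cyclin E, was at 1013 and 1408 on the shSOX11 arrays and 746 and 835 on the shControl arrays, a log2 change of 0.60 (SE 0.19, 95% interval 0.17 to 1.03, limma adjusted p = 0.462). E2F2, an activating E2F, was at 529.6 and 516 on the shSOX11 arrays and 671 and 696 on the shControl arrays, a log2 change of -0.39 (SE 0.15), and LIN9, a partner of MYBL2 named after its value was seen, at 0.65 (SE 0.28). In the list of 8 proliferation markers (median 0.074) MKI67 and TOP2A, which stands in 2 lists, lay under it, both higher, while the mitotic kinase AURKA was at -0.28 (SE 0.22). MKI67, the gene of the Ki-67 antigen, was at 1571 and 1574 on the shSOX11 arrays and 970.2 and 962 on the shControl arrays, a log2 change of 0.70 (SE 0.14, 95% interval 0.38 to 1.02, limma adjusted p = 0.315). Neither MKI67 nor TOP2A overlapped between the groups, as was so for 16.2% of all genes on the higher side. The plot of lists sets the 47 genes beside these.

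**Figure D4:**
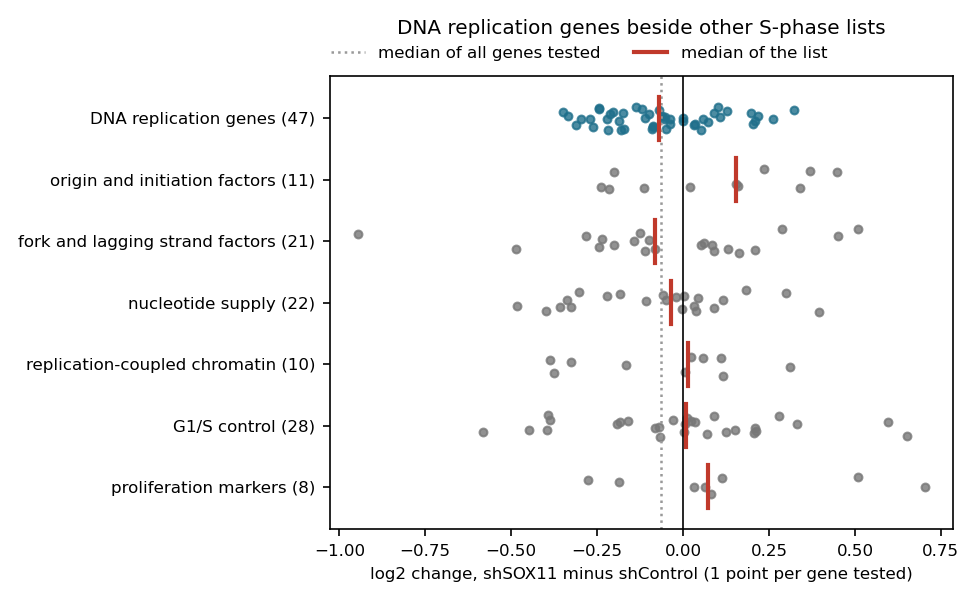
Log2 change (shSOX11 minus shControl, 1 point per gene tested, x axis) of the 47 DNA replication genes in blue and of 6 further lists in grey, with list medians as red bars and the median of all genes as a dotted line. The replication genes lie between -0.35 and 0.32 around a median of -0.070, and the list medians run from -0.081 to 0.15.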

How the data were processed

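Total RNA of 4 Z138 samples was hybridised to 1 single-colour array each, and groups were taken from the sample titles. The deposited values are linear signal intensity, 1 per probe set and array. MAS5 and Affymetrix Expression Console are the programs in the submitters' processing notes, and of their versions and settings nothing is given in the sources used. MAS5 is known to correct with mismatch probes, which leaves dim signals noisy.

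Of 54675 probe sets, 62 were array controls and 41091 had 1 gene symbol. Signals were taken to log2 with no pseudocount. Probe sets were kept where at least 2 arrays exceeded 24.8, the table's median signal, and each gene was read through its kept probe set of highest mean log2 signal. The test was limma (version 3.58.1, R 4.3.3; lmFit and eBayes with intensity trend, two-sided, Benjamini-Hochberg over 11938 genes), with 2 residual degrees of freedom, 8.39 after moderation. The 1.5-fold rule asks for that distance from both shControl arrays. The limma step was run on simulated data, with the same spread on every array of a gene, to check its estimates and intervals. In the real data the shSOX11 arrays were often further apart than the shControl arrays. How many true 1.5-fold changes the test would call is not given here.

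Given array by array were SOX11, members past 1.5-fold on a construct or under an unadjusted p of 0.05, and MCM2, MCM7, CDC6, CDT1, GMNN, CDC45, PCNA, POLA1, POLE, RPA1, RRM1, RRM2 and TYMS whatever their values. Each further list named the 3 genes of smallest p, and members whose probe sets differ in sign were named. MCM5, MCM6, ORC1, ORC6, RPA2 and the further values were added after they were seen. Members and lists were chosen with earlier results of these data known. Other scalings, filters, pseudocounts, probe set rules, limma options, thresholds and each array left out were tried. Of these, those on second brightest and on single probe sets were chosen after seeing the data.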

Additional observations from a re-analysis of the deposited data

How the results depend on the processing

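The count of 0 of 47 genes past limma's adjusted p of 0.05 was the same with a pseudocount of 32, after median centring or quantile normalization, with no filter or a filter at the 65th or 35th percentile, with the mean of probe sets, no _x_at probe sets (46 genes, since ORC6 then has none), limma without trend or robust, an adjusted p of 0.10 and every probe set on its own. With 1 array left out it ran from 0 to 4 (4 without shSOX11.1). The 1.5-fold count on shSOX11.1 was 0 after quantile normalization, 0 with a pseudocount of 32 and 0 at 2-fold. On shSOX11.3 it was 1 with median centring (RPA2), 0 to 3 with 1 array left out (MCM7, PRIM2 and RPA2 without shControl.1) and 4 with the second brightest probe set (RFC1 and RFC3 higher, POLA2 and TK1 lower, among 25 genes). On shSOX11.1 the second brightest probe set put MCM6 past 1.5-fold, lower. With median centring the median log2 difference turned to 0.021 on shSOX11.1 and was -0.00052 on shSOX11.3. None of the 47 was called in any fit with all 4 arrays. Log2 changes that turned were, with median centring, MCM2 0.046, CDC45 0.030, RFC3 0.082, RFC4 0.032, POLD2 0.043, POLE2 0.013, RPA1 0.026, TK1 0.082 and GMNN 0.021, and after quantile normalization, RFC3 0.057 and TYMS 0.029. With the mean of probe sets they were MCM10 -0.053, GINS2 0.16, ORC2 0.045, ORC5 0.13, RFC3 0.30, POLA2 -0.058, RPA1 0.083, RRM1 0.15 and TYMS 0.13. On the second brightest probe set they were MCM10 -0.43, GINS3 -0.037, ORC2 0.18, ORC5 0.26, RFC3 0.77, RFC5 -0.31, POLA2 -0.57, RPA1 0.30, RRM1 0.48, RRM2 0.13 and TYMS 0.50. With 1 array left out, ranges that crossed 0 were MCM2 -0.12 to 0.044, MCM4 -0.029 to 0.099, MCM10 -0.048 to 0.23, CDT1 -0.39 to 0.22, CDC45 -0.22 to 0.12, ORC6 -0.47 to 0.27, RFC2 -0.035 to 0.097, RFC3 -0.074 to 0.072, RFC4 -0.10 to 0.00088, RFC5 -0.023 to 0.22, POLA1 -0.35 to 0.13, POLA2 -0.21 to 0.31, POLD2 -0.23 to 0.15, POLE2 -0.26 to 0.12, PRIM2 -0.30 to 0.42, RPA1 -0.14 to 0.030, RPA2 -0.33 to 0.55, TK1 -0.21 to 0.21 and GMNN -0.12 to 0.00018. The cause of these turns was not tested. No paired analysis was possible because the array names of the groups share only the number 1. Signals near the threshold, such as the dimmest GINS2 probe set, limit what can be read, and 2 arrays a group limit every interval.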
